A study of Homo sapiens with 6 samples.

Results

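The transcriptional cyclin-dependent kinases and their cyclins were followed in MDA-MB-231 cells before and after dinaciclib. The members were the kinases CDK7, CDK8, CDK9, CDK12 and CDK13 and the cyclins CCNH, CCNC, CCNT1, CCNT2 and CCNK. Every probe set that the platform annotation gives to 1 of these genes was taken, which gave 17 probe sets for 10 genes, of 22215 probe sets and 11963 named genes in all. No probe set that is shared by several genes held a member, 7 genes had 1 probe set each, and CCNT2, CDK12 and CDK13 had several.

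MDA-MB-231 is an established triple-negative breast cancer cell line, and dinaciclib is a small molecule that inhibits several CDKs, among them CDK9 and CDK12. Total RNA was measured on 6 single-label oligonucleotide arrays, 3 from cells at baseline (0 h, samples E, 4 and 5) and 3 from cells after 12 h of dinaciclib dissolved in DMSO (samples F, 4 and 5). The dose, and whether baseline cells received DMSO, are not given in the labels, and no untreated sample was kept for 12 h, so the drug, its solvent and time in culture cannot be told apart. Whether the samples of a group were separate cultures is not stated, so the spread behind each p-value may be technical only.

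Transcriptional CDKs are kinases, each bound by a cyclin, that act on RNA polymerase II and its partners. CDK7 with cyclin H sits in the general factor TFIIH and activates other CDKs, and CDK8 with cyclin C forms a module that binds Mediator. CDK9 with cyclin T1 or T2 makes up P-TEFb, which releases paused polymerase, and CDK12 and CDK13 with cyclin K phosphorylate the polymerase tail during elongation, with CDK12 known for keeping up transcription of long genes and of DNA repair genes.

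The 3 genes that the results turn on are shown by the 250 bases before their annotated start, because CDK12 and CDK9 were lower and CCNT2 was higher after the drug. The sequences are from RefSeq on GRCh38.p14, read 5′ to 3′ on the plus strand, which is the strand of each of these genes. They lie at chr17:39461236-39461485 for CDK12, chr9:127785784-127786033 for CDK9 and chr2:134918572-134918821 for CCNT2. Capitals mark matches, on either strand, to 5 motifs: the GC box GGGCGG, the CCAAT box, the TATA box TATAAA, the ETS site CCGGAAG and the cAMP response element TGACGTCA.
CDK12: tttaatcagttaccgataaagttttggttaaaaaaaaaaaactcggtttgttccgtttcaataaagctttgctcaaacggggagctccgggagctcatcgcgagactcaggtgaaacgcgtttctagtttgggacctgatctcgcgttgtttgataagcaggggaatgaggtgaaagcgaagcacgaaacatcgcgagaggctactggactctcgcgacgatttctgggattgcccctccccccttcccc
CDK9: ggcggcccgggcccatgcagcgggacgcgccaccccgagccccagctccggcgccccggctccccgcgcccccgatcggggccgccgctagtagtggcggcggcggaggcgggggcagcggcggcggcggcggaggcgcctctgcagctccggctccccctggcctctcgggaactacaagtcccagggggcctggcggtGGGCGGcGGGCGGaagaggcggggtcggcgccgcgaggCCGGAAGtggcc
CCNT2: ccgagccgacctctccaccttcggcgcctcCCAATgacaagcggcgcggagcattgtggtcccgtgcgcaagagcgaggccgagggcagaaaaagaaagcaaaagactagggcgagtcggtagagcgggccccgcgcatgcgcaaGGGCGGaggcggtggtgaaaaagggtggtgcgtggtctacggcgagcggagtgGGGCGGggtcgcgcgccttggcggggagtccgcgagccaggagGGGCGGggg
The CDK12 window had a GC content of 48.8% and held none of the 5 motifs. The CDK9 window had a GC content of 82.0%, 2 GC boxes and 1 ETS site, and that of CCNT2 had a GC content of 69.6%, 3 GC boxes and 1 CCAAT box. Over 35116 such windows in RefSeq the median GC content was 58.0%, and 42.6% held a GC box, 32% a CCAAT box, 10.7% a TATA box, 8.52% an ETS site and 1.65% a cAMP response element. These matches describe letters only and no factor binding was measured.

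Each array gave 1 intensity per probe set, and array medians were 53.3 to 66.2 at baseline and 40.6 to 46.8 after dinaciclib, so the groups differed in overall brightness. The median probe set had a log2 change of -0.21, and this became 0.03 after quantile normalization, 0.24 after centring each array on its median and -0.29 after centring on spiked control probe sets. The letter-named arrays E and F stood apart from the numbered ones: the 5-prime probe set for 18S ribosomal RNA read 736 and 1155 on them and 8273 to 9061 on the 4 numbered arrays, and the 3-prime to 5-prime ratio of the ACTB control was 4.27 and 3.64 on E and F and 5.87 to 6.67 on the others. Markers fitted the label in part: 6 of 7 basal-like mesenchymal markers lay above the 40th percentile of brightness (an intensity of about 22.6), with SPARC below it, while ESR1, PGR and CDH1, markers of luminal or epithelial cells, lay below it and 6 other such markers above. None of 3 blood and 2 endothelial markers and 1 of 3 fibroblast markers lay above it. Precision is limited by the number of arrays.

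Of the 17 probe sets, 2 rose, 3 fell and 12 did not pass the test (limma on log2(intensity + 1), Benjamini-Hochberg adjusted p under 0.05 over all 22215 probe sets). Over all probe sets 17.2% passed, 3.86% as higher and 13.4% as lower, beside 29.4% of the member probe sets. The probe sets that passed belonged to CCNT2, CDK12 and CDK9, and the 7 other genes had none. The groups did not overlap on 9 member probe sets, 5 higher and 4 lower, against 36.6% of all probe sets, 10.1% higher and 26.5% lower. The median log2 change was 0.10 over the member probe sets and -0.21 over all, and 4 member probe sets lay below the 40th percentile of brightness. Quantile normalization gave 4 higher and 4 lower member probe sets (9.59% and 10.5% of all probe sets), median centring 6 and 3 (15.7% and 8.72%) and centring on spiked controls 2 and 3 (2.34% and 10.9%).

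**Figure D1:**
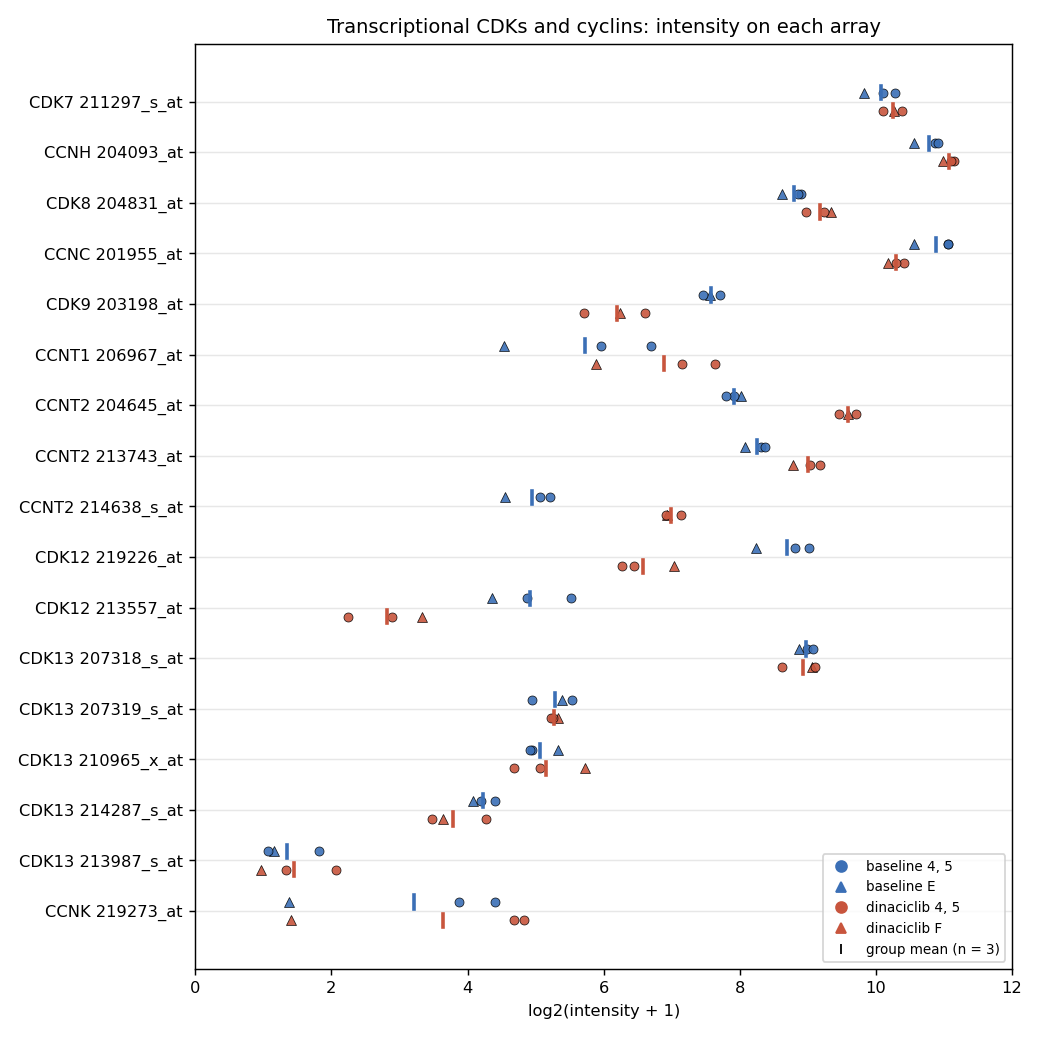
The plot gives log2(intensity + 1) on each array for the 17 probe sets, with baseline arrays above dinaciclib arrays in each row, triangles for arrays E and F, circles for arrays 4 and 5, and a bar at each group mean (n = 3). CDK12 and CDK9 lie lower and the 3 probe sets of CCNT2 higher after dinaciclib with no overlap, while CCNK and CCNT1 are spread widely within each group, with E and F lowest.

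CDK12, the kinase that phosphorylates the polymerase tail with cyclin K, fell on both of its probe sets. On the brighter one, 219226_at, intensities were 301, 519 and 450 in baseline E, 4 and 5 and 130, 86.0 and 76.0 in dinaciclib F, 4 and 5. Every treated array lay below every baseline array. The mean (± SD, n = 3) was 8.69 ± 0.40 log2 units at baseline and 6.58 ± 0.40 after the drug, a difference of -2.11 (standard error 0.31), with a 95% interval from -2.86 to -1.36 (limma, Benjamini-Hochberg adjusted p = 0.00856). Of all probe sets, 2.28% had a lower log2 change.

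The second CDK12 probe set, 213557_at, is dim. It read 19.6, 44.8 and 28.4 in baseline E, 4 and 5 and 9.08, 6.42 and 3.74 in dinaciclib F, 4 and 5, again without overlap. The log2 change was -2.09 (standard error 0.40; limma, Benjamini-Hochberg adjusted p = 0.0183), and with log2(intensity + 16) it was -1.04 and still passed. The call ended without baseline 4 (adjusted p = 0.0583), baseline 5 (0.0598), dinaciclib 4 (0.0542) or dinaciclib 5 (0.0529), whereas that of 219226_at held whichever 1 array was left out.

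The fall of CDK12 was larger between the numbered arrays than between the letter-named ones. From E to F the log2 difference was -1.21 on 219226_at and -1.03 on 213557_at. Within the 4 numbered arrays the log2 changes were -2.56 and -2.63 (limma, Benjamini-Hochberg adjusted p = 0.0367 and 0.0434). The letter-named arrays are 1 per group, and whether their difference departs from that of the numbered arrays was not tested.

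CDK13, the paralogue of CDK12, did not pass on any of its 5 probe sets. Intensities on the brightest one, 207318_s_at, were 469, 505 and 536 in baseline E, 4 and 5 and 535, 552 and 392 in dinaciclib F, 4 and 5. The groups overlapped, with dinaciclib 5 the lowest array and dinaciclib 4 the highest. The log2 change was -0.04 with a 95% interval from -0.56 to 0.47, which excludes a fall of the size seen for CDK12 on that scale. Under quantile normalization it was 0.23 and under median centring 0.41, and it did not pass under either.

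The other CDK13 probe sets were dimmer and all 4 overlapped between groups. On 207319_s_at intensities were 40.8, 45.2 and 29.8 at baseline and 39.4, 37.0 and 36.5 after dinaciclib (log2 change -0.02, standard error 0.22). On 210965_x_at they were 39.3, 30.0 and 29.3 against 52.1, 32.4 and 24.7 (0.09, 0.31). The suffixes _s_at and _x_at mark probe sets whose probes may also match other transcripts of the gene or of other genes. On 214287_s_at intensities were 15.9, 17.3 and 20.3 against 11.4, 18.2 and 10.1 (-0.44, 0.27). On 213987_s_at, the dimmest member probe set, they were 1.24, 2.53 and 1.10 against 0.954, 3.18 and 1.53 (0.10, 0.36). The signs differed among the 5 probe sets, and none of them has an interval that leaves out 0.

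CCNK, cyclin K, the partner of both kinases, was measured by 219273_at alone and was too dim and variable to place. It read 1.59, 13.6 and 20.2 in baseline E, 4 and 5 and 1.64, 24.8 and 27.5 in dinaciclib F, 4 and 5. The letter-named array was the lowest of each group, and both numbered arrays were higher after the drug than at baseline. The log2 change was 0.43 (standard error 1.17) with a 95% interval from -2.40 to 3.25 (limma, Benjamini-Hochberg adjusted p = 0.855), so neither a fall as large as that of CDK12 nor a rise was detectable.

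CDK9, the kinase of P-TEFb, fell on its single probe set, 203198_at. It read 188, 207 and 174 in baseline E, 4 and 5 and 74.8, 96.5 and 51.5 in dinaciclib F, 4 and 5. The groups did not overlap, and the treated arrays were spread more widely than the baseline ones on the log2 scale. The mean (± SD, n = 3) was 7.57 ± 0.13 log2 units at baseline and 6.19 ± 0.45 after the drug, a difference of -1.39 (standard error 0.27), with a 95% interval from -2.04 to -0.73 (limma, Benjamini-Hochberg adjusted p = 0.0198). Quantile normalization brought the change to -0.91 (adjusted p = 0.0401), and it ranged from -1.59 to -0.91 over the alternatives.

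The CDK9 call depended on which arrays were used. It ended without baseline 4 (adjusted p = 0.0746), baseline 5 (0.0615) or dinaciclib F (0.0505), and within the numbered arrays alone (log2 change -1.42, adjusted p = 0.106). From E to F the log2 difference was -1.32.

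CCNT2, cyclin T2, one of the cyclins that bind CDK9, was higher on all 3 of its probe sets and rose on 2. On the brightest, 204645_at, intensities were 258, 240 and 222 in baseline E, 4 and 5 and 767, 701 and 837 in dinaciclib F, 4 and 5. The lowest treated array lay above the highest baseline array by a wide margin. The mean (± SD, n = 3) was 7.91 ± 0.11 log2 units at baseline and 9.58 ± 0.13 after the drug, a difference of 1.67 (standard error 0.19), with a 95% interval from 1.23 to 2.12 (limma, Benjamini-Hochberg adjusted p = 0.00461). Of all probe sets, 1.30% had a higher log2 change.

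The dimmer CCNT2 probe set 214638_s_at gave a change of similar size. It read 22.3, 35.9 and 32.6 in baseline E, 4 and 5 and 121, 140 and 120 in dinaciclib F, 4 and 5. The log2 change was 2.05 (standard error 0.24; limma, Benjamini-Hochberg adjusted p = 0.00502), and with log2(intensity + 16) the changes of these 2 probe sets were 1.63 and 1.62. Both passed within the numbered arrays (log2 changes of 1.89 and 1.73, adjusted p = 0.0367 and 0.0372) and whichever 1 array was left out. From E to F they differed by 2.38 and 1.57.

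The third CCNT2 probe set, 213743_at, moved less and did not pass as deposited. It read 268, 317 and 330 in baseline E, 4 and 5 and 439, 581 and 521 in dinaciclib F, 4 and 5, with no overlap. The log2 change was 0.75 (standard error 0.21) with a 95% interval from 0.25 to 1.25 (limma, Benjamini-Hochberg adjusted p = 0.0554). It passed in 7 of 16 alternatives, among them quantile normalization (1.09, adjusted p = 0.00596), median centring (1.20, 0.00642) and a covariate for letter or number in the sample names (0.75, 0.0243). It did not pass after centring on spiked controls (0.66, adjusted p = 0.167) or within the numbered arrays (0.76, 0.0833). Nor did it pass when any 1 array was left out (adjusted p from 0.0736 to 0.167). Whether the 3 probe sets differ in their change was not tested.

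CCNT1, cyclin T1, the other cyclin of P-TEFb, showed a difference between letter-named and numbered arrays as large as that between groups. Its probe set 206967_at read 22.2, 103 and 61.0 in baseline E, 4 and 5 and 57.9, 197 and 141 in dinaciclib F, 4 and 5. The groups overlapped, but E was the lowest baseline array and F the lowest treated array. The log2 change was 1.16 (standard error 0.67) with a 95% interval from -0.47 to 2.79 (limma, Benjamini-Hochberg adjusted p = 0.311). From E to F the log2 difference was 1.35, and within the numbered arrays the change was 1.07 (adjusted p = 0.160). With a covariate for letter or number in the names, the change of 1.16 passed (adjusted p = 0.0461).

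CDK7, the kinase of TFIIH, and its cyclin CCNH did not pass. CDK7 read 905, 1241 and 1102 in baseline E, 4 and 5 and 1233, 1331 and 1097 in dinaciclib F, 4 and 5 on 211297_s_at. The groups overlapped, with a log2 change of 0.18 and a 95% interval from -0.33 to 0.68. CCNH read 1509, 1870 and 1918 at baseline and 2030, 2264 and 2200 after dinaciclib on 204093_at. These groups did not overlap, but the log2 change was 0.30 with a 95% interval from -0.17 to 0.77 (limma, Benjamini-Hochberg adjusted p = 0.365). Both passed as higher under median centring only (0.63 and 0.75, adjusted p = 0.0213 and 0.0162), where the median probe set moved up as well.

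CDK8, the Mediator kinase, and its cyclin CCNC differed in opposite directions, and neither passed as deposited. CDK8 read 393, 478 and 462 in baseline E, 4 and 5 and 645, 602 and 501 in dinaciclib F, 4 and 5 on 204831_at. No treated array lay below a baseline array, and the log2 change was 0.39 (standard error 0.20; limma, Benjamini-Hochberg adjusted p = 0.258). It passed after quantile normalization (0.68, adjusted p = 0.0274) and median centring (0.84, 0.0122). CCNC read 1508, 2125 and 2127 at baseline and 1157, 1363 and 1261 after dinaciclib on 201955_at, also without overlap. Its log2 change was -0.59 (standard error 0.22; limma, Benjamini-Hochberg adjusted p = 0.127), and it passed as lower after quantile normalization (-0.60, 0.0224) but not under median centring (-0.14, 0.551).

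**Figure D2:**
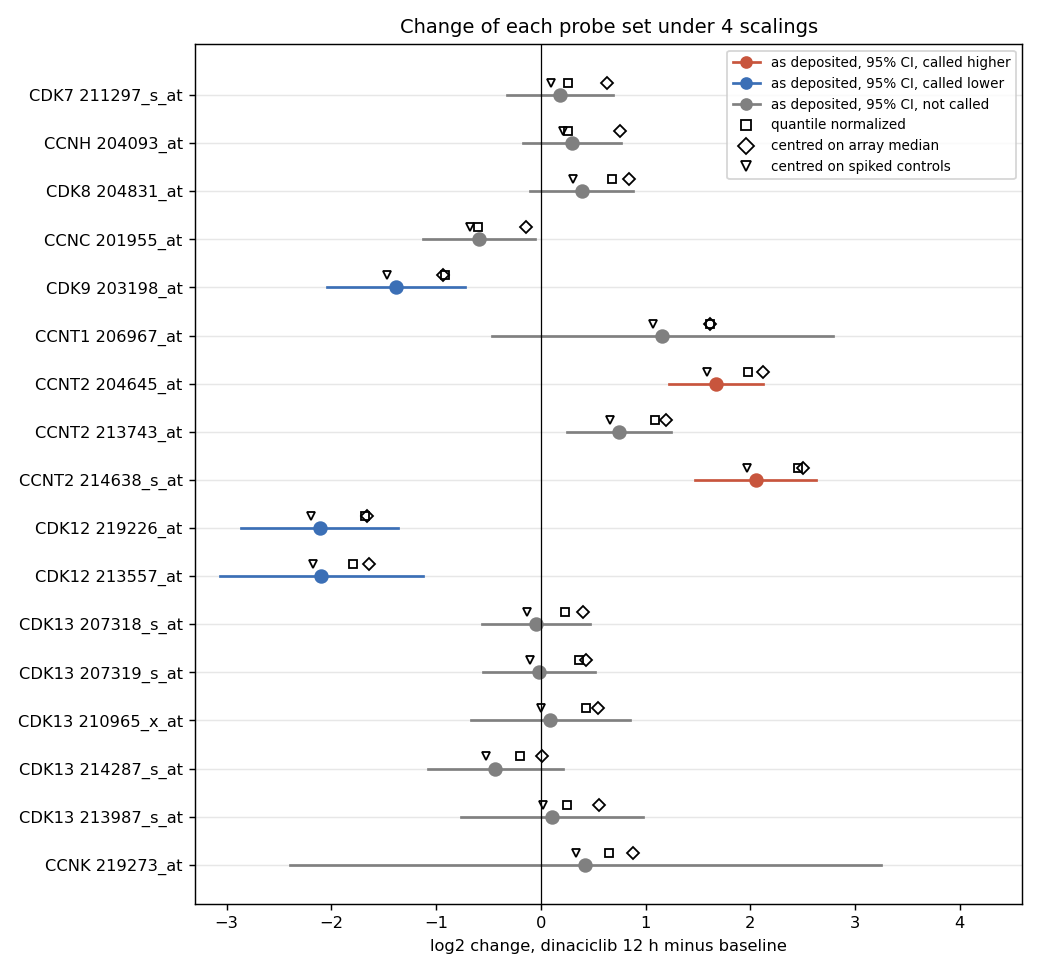
The plot gives the log2 change of each probe set (dinaciclib 12 h minus baseline) with its 95% interval as deposited, coloured by the call, and the change after quantile normalization, median centring and centring on spiked controls as open symbols. CDK12 and CDK9 lie below 0 and CCNT2 above 0 under all 4 scalings, while 4 of the 5 CDK13 probe sets lie between -0.04 and 0.10 as deposited.

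Kinases were then compared with their cyclins and paralogues inside each array, where a scaling factor of the array largely cancels. The measure is the log2 ratio of the brightest probe sets, and 7 pairs were compared with an exact two-sided permutation test, which cannot go below p = 0.1 with 3 arrays against 3. The ratio of CDK12 to CDK13 was -0.64, 0.04 and -0.25 in baseline E, 4 and 5 and -2.03, -2.67 and -2.35 in dinaciclib F, 4 and 5. All treated arrays lay below all baseline arrays, a difference of -2.07 (exact permutation p = 0.1, Benjamini-Hochberg adjusted p = 0.175). It kept its sign under every alternative run for it, from -2.40 to -1.91. The log2 changes behind it were -2.11 for CDK12 and -0.04 for CDK13, so it mostly restates the fall of CDK12.

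Within P-TEFb the ratio of the kinase to either cyclin was lower on every treated array. The log2 ratio of CDK9 to CCNT2 was -0.45, -0.21 and -0.35 in baseline E, 4 and 5 and -3.34, -2.85 and -4.00 in dinaciclib F, 4 and 5, a difference of -3.06. That of CDK9 to CCNT1 was 3.03, 1.01 and 1.5 against 0.36, -1.02 and -1.44, a difference of -2.55. Neither ratio overlapped between groups (exact permutation p = 0.1, Benjamini-Hochberg adjusted p = 0.175 for each). For CDK9 to CCNT2 this had to follow, because CDK9 was lower and CCNT2 higher without overlap. That ratio therefore restates the 2 changes and is not separate evidence. The difference for CDK9 to CCNT1 is likewise made up of their single changes, -1.39 and 1.16. The ratio of CCNT2 to CCNT1 differed by 0.51 with overlapping groups (exact permutation p = 0.6, adjusted p = 0.6), so a difference between the 2 cyclins was not detectable.

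In the Mediator pair the log2 ratio of CDK8 to CCNC was -1.94, -2.15 and -2.20 in baseline E, 4 and 5 and -0.84, -1.18 and -1.33 in dinaciclib F, 4 and 5. The treated arrays were all higher, by 0.98 on average (exact permutation p = 0.1, Benjamini-Hochberg adjusted p = 0.175). This separation also had to follow, because CDK8 was higher and CCNC lower without overlap. The ratio adds no evidence beyond those values. The ratio of CDK7 to CCNH differed by -0.12 with overlapping groups (exact permutation p = 0.5, adjusted p = 0.583). That of CDK12 to CCNK differed by -2.54, also with overlap (exact permutation p = 0.3, adjusted p = 0.42), and E and F had the highest ratio of their group, as they had the lowest CCNK values.

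**Figure D3:**
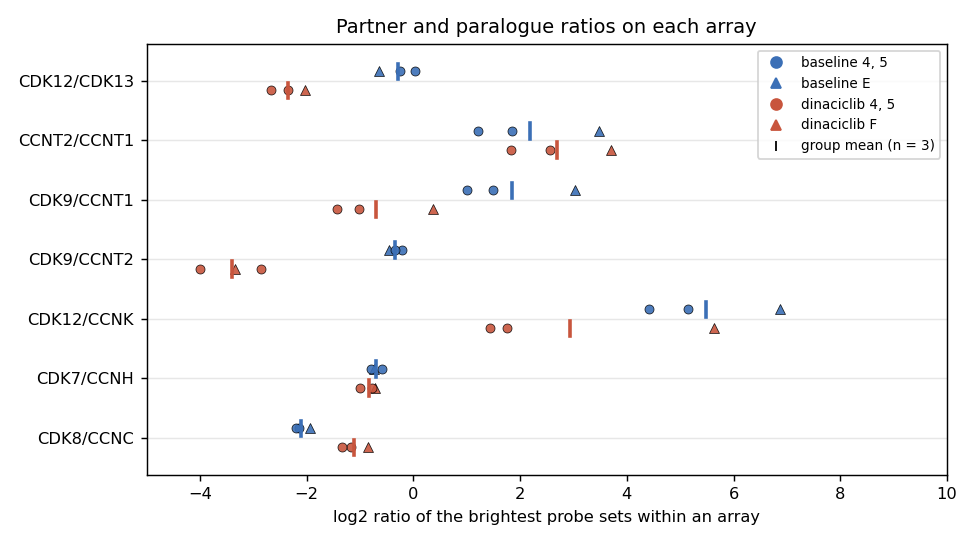
The plot gives the log2 ratio of the brightest probe sets of 7 pairs on each array, baseline above dinaciclib, with triangles for arrays E and F, circles for arrays 4 and 5 and bars at the group means (n = 3). The groups are apart for CDK12/CDK13, CDK9/CCNT1, CDK9/CCNT2 and CDK8/CCNC and overlap for the other 3 pairs.

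Other genes with profiles close to the members were found by the root-mean-square difference of log2 values over the 6 arrays, each profile centred on its own mean. For the largest fall, CDK12 on 219226_at, they were FARSA, a subunit of phenylalanyl-tRNA synthetase, on 216602_s_at (difference 0.020 log2 units), the cochaperone DNAJB12 (0.083) and TBC1D2 (0.12). FARSA read 163, 272 and 244 in baseline E, 4 and 5 and 68.2, 46.2 and 40.7 in dinaciclib F, 4 and 5. For the largest rise, CCNT2 on 214638_s_at, they were FAM120C (0.080), the kinase BMP2K (0.11) and the membrane receptor GPRC5A (0.12). GPRC5A read 675, 962 and 841 at baseline and 3683, 3595 and 2880 after dinaciclib. The closeness is a description over 6 arrays of 2 groups.

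Genes that work with these kinases were taken from 6 lists, of which 48 of 59 genes had a probe set. Over their 84 probe sets 5 rose, 24 fell and 55 did not pass, where 3.86% of all probe sets were called higher and 13.4% lower, with a median log2 change of -0.55 beside -0.21 over all probe sets. The balance depended on scaling, with 10 rises and 16 falls after quantile normalization (9.59% and 10.5% of all probe sets) and 12 rises and 13 falls after median centring (15.7% and 8.72%).

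Of the other subunits of TFIIH and the CDK-activating kinase, 3 of 7 measured genes fell and 0 rose, and the median over 8 probe sets was -0.97. By probe set, 4 of 8 were lower, against 13.4% of all. GTF2H1, a core subunit of TFIIH, fell on both probe sets (-2.28, standard error 0.22, on 202453_s_at). GTF2H4, another core subunit, fell too (-1.55, standard error 0.26), a call that ended without baseline 5 (adjusted p = 0.0518). MNAT1, which holds CDK7 and cyclin H together, did not pass (-0.19, standard error 0.22).

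Of the Mediator kinase module 3 of 4 measured genes fell on at least 1 probe set and 0 rose. The median was -0.83 over 13 probe sets, of which 5 were called lower and 0 higher, against 13.4% and 3.86% of all. MED12 fell on 1 of its 4 probe sets (-1.07, standard error 0.25, on 216071_x_at), and the others did not pass. MED13, which links the module to Mediator, fell on both probe sets (-1.86, standard error 0.21, on 201986_at). CDK19, the paralogue of CDK8, fell on 2 of its 3 probe sets. On 212897_at, where its change was the largest (-1.41, standard error 0.36), the call ended after quantile normalization (adjusted p = 0.118) and median centring (0.0934). It also ended without baseline 4 (0.13), baseline 5 (0.127), dinaciclib F (0.109), dinaciclib 4 (0.108) or dinaciclib 5 (0.0597).

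Among regulators of P-TEFb, the 7SK complex and the super elongation complex, 3 of 11 measured genes had a rise, 4 had a fall and 4 had neither, with a median of -0.57 over 19 probe sets. Of these, 4 were called higher and 5 lower, against 3.86% and 13.4% of all. AFF4, a scaffold of the super elongation complex, rose by 1.84 (standard error 0.35), and ELL, an elongation factor of that complex, rose on both probe sets (1.43, standard error 0.22, on 204095_s_at). MEPCE, which caps 7SK RNA, fell by 1.46 (standard error 0.29). LARP7, which binds the end of that RNA, fell on 1 of its 2 probe sets (-1.28, standard error 0.21, on 212785_s_at), and the dimmer one, 215246_at, did not pass (0.31, standard error 0.32). The AFF4 call ended without baseline 5 (adjusted p = 0.062) or dinaciclib 4 (0.0547), and that of LARP7 without baseline 5 (0.0512). That of MEPCE ended without baseline 4 (adjusted p = 0.074), baseline 5 (0.0745), dinaciclib 4 (0.0547) or dinaciclib 5 (0.0604).

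Among the polymerase tail, pausing factors and tail phosphatases, 1 of 10 measured genes rose and 4 fell on at least 1 probe set. The median was -0.07 over 17 probe sets. Of these, 1 was called higher and 4 lower, shares to be read against the same 3.86% and 13.4%. CTDSP1, a small tail phosphatase, fell by 1.47 (standard error 0.20). PCIF1, a methyltransferase that binds the tail, fell on 1 of its 4 probe sets, the dimmest (-1.63, standard error 0.40, on 221762_s_at). The brighter ones did not pass and had the opposite sign (0.39 on 222044_at, 0.23 on 89948_at and 0.14 on 222045_s_at). The call of 221762_s_at ended after quantile normalization (adjusted p = 0.0686) and median centring (0.0801). It also ended without baseline 4 (0.123), baseline 5 (0.117), dinaciclib 4 (0.0918) or dinaciclib 5 (0.1). CTDSP2, a relative of CTDSP1, rose on 1 of its 2 probe sets (0.74, standard error 0.19, on 208735_s_at). The brighter one, 203445_s_at, did not pass (-0.07, standard error 0.25). The rise on 208735_s_at did not pass when any 1 array was left out (adjusted p from 0.072 to 0.143) nor after centring on spiked controls (0.192).

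Of the other CDKs and cyclins tied to transcription or splicing, CDK10 was the 1 of 4 measured genes that fell, on 2 of its 3 probe sets, and 0 rose, with a median of -0.65 over 6 probe sets (2 called lower, against 13.4% of all). On 203469_s_at its log2 change was -1.17 (standard error 0.29). The call ended after quantile normalization (adjusted p = 0.0692), median centring (0.0601) and centring on spiked controls (0.0653). It held without baseline E but ended without baseline 4 (0.131), baseline 5 (0.132), dinaciclib F (0.101), dinaciclib 4 (0.0503) or dinaciclib 5 (0.115). Of 12 cell-cycle CDKs and cyclins 3 fell on at least 1 probe set and 0 rose. The median was -0.48 over 21 probe sets, of which 4 were called lower and 0 higher, against 13.4% and 3.86% of all. CDK2 fell on 1 of its 3 probe sets, the brightest (-0.88, standard error 0.21, on 204252_at). CCNB1, the mitotic cyclin B1, fell by 1.56 (standard error 0.21), and CCNA2, cyclin A2, fell on both probe sets (-1.08, standard error 0.23, on 203418_at). The call of 203418_at ended without baseline 4 (adjusted p = 0.0898), baseline 5 (0.0957), dinaciclib F (0.0729), dinaciclib 4 (0.065) or dinaciclib 5 (0.0746).

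**Figure D4:**
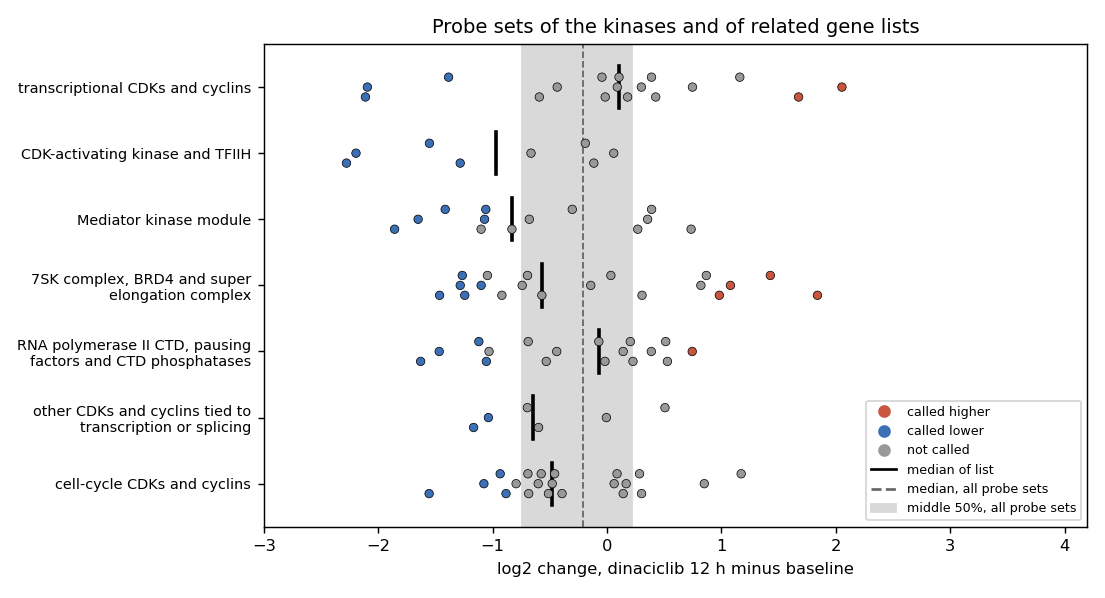
The plot gives the log2 change (dinaciclib 12 h minus baseline) of every probe set of the transcriptional CDKs and cyclins and of 6 related gene lists, coloured by the call, with a bar at each list's median. The dashed line marks the median of all probe sets, -0.21, and the grey band their middle 50%, from -0.74 to 0.22. The transcriptional CDKs and cyclins hold the highest point, CCNT2 on 214638_s_at at 2.05, and 2 of the 4 lowest, the CDK12 probe sets at -2.11 and -2.09.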

How the data were processed

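The authors deposited 1 linear intensity for each of 22277 probe sets on each array. Background correction and scaling are not given in the sources used. The array medians differ, so the values were not brought to a common median. After 62 control probe sets were left out, 22215 were tested, of which 19064 had 1 gene in the platform annotation, 1043 several and 2108 none; symbols were looked up by gene identifier in RefSeq (19052 matched).

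Values were tested as log2(intensity + 1), per probe set, using limma 3.58.1 (lmFit, eBayes) under R 4.3.3, with a model of group alone. Benjamini-Hochberg adjustment covered all 22215. Fold changes on this scale understate changes of dim probe sets. Ratios were tested with exact permutation in Python 3.11.15. Described with every value were each member gene's brightest probe set, member probe sets past the threshold and member genes whose probe sets differ in sign. From each list the members with the 2 largest rises and 2 largest falls past the threshold are given by log2 change and standard error. Steps were tested on simulated data. The members and lists were chosen with earlier results of these data known. Alternatives were 3 scalings, a pseudocount of 16, no probe sets under the 40th percentile, each array left out, the numbered arrays alone, replicate blocks, a covariate for letter or number in the sample names, a variance trend with robust estimation, 1 probe set per gene and, for ratios, averaging all probe sets per gene.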

Additional observations from a re-analysis of the deposited data

How the results depend on the processing

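With 3 arrays per group, dim probe sets such as those of CCNK and CDK13 (213987_s_at) give only wide intervals. The probe sets of CDK12, CDK9 and CCNT2 that passed kept their direction under every alternative run for them, as did all member probe sets except those of CDK13 and CCNK. Without dim probe sets no value exists for CCNK, for CDK12 on 213557_at, for 2 CDK13 probe sets and for the ratio of CDK12 to CCNK, and 1 probe set per gene leaves out 7 member probe sets by construction.

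Member probe sets called higher numbered 2 as deposited, 4 after quantile normalization, 6 after median centring, 4 with the covariate for letter or number and 1 with 1 probe set per gene. Leaving out 1 array in turn gave 2 higher in each case and 1 to 3 lower. Deviations from the group means correlated weakly between samples of the same number (0.083 for number 4 and 0.077 for number 5) and between E and F (0.17). The other pairings of a baseline with a dinaciclib sample gave lower values, from -0.11 to 0.038. The labels do not state whether samples were paired, and these weak correlations cannot decide it. The replicate block on numbers 4 and 5, which leaves 1 residual degree of freedom, called 0 probe sets in all, among the members and in the lists (limma; 6799, 8 and 44 at an unadjusted p under 0.05, with a smallest adjusted p of 0.101). The replicate block that also pairs E with F called 4 member probe sets higher and 2 lower, with CDK12 on 213557_at no longer passing (adjusted p = 0.0557).

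Over all probe sets 857 were called higher and 2971 lower. Higher calls numbered 2130 after quantile normalization, 3487 after median centring, 520 after centring on spiked controls, 449 in the numbered arrays, 1291 with a variance trend, and 538 with 1 probe set per gene, and 362 to 629 without 1 array. Lower calls numbered 1938 after median centring and 1721 in the numbered arrays, and 1245 to 2684 without 1 array. In the 6 lists, with 5 higher and 24 lower, higher calls numbered 10, 12 and 2 under quantile normalization, median centring and spiked controls, 1 in the numbered arrays, 3 with 1 probe set per gene and 1 to 3 without 1 array, and lower calls 13 after median centring, 14 in the numbered arrays and 6 to 23 without 1 array.

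Signs turned as follows, none past the threshold. The ratio of CDK7 to CCNH turned to 0.0037 after quantile normalization. CDK13 on 207318_s_at turned to 0.23 after quantile normalization and 0.41 after median centring, and on 207319_s_at to 0.36 and 0.44 under these and to 0.0016 in the numbered arrays and under the replicate block. On 210965_x_at it turned to -0.064 in the numbered arrays and under the replicate block, and on 214287_s_at to 0.016 after median centring. With 1 array left out, the ranges that crossed 0 were -0.13 to 0.11 for 207318_s_at, -0.19 to 0.10 for 207319_s_at, -0.20 to 0.33 for 210965_x_at, -0.20 to 0.35 for 213987_s_at and -0.50 to 1.54 for CCNK. The cause was not tested.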
